A study of Mus musculus with 18 samples.

Results

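Differentiated cells grown from adult germline stem cells were compared with differentiated cells grown from embryonic stem (ES) cells, both of the mouse strain background 129SV. The members are all 6 arrays that carry these labels, 3 of differentiated adult stem cells and 3 of differentiated ES cells, out of 18 arrays in the series. The series covers 6 groups of 3 biological replicates on Affymetrix Mouse Gene 1.0 ST arrays, and its title concerns pluripotent ES cells and multipotent adult germline stem cells. The other groups are undifferentiated adult and ES cells of 129SV and of a Stra8-EGFP/Rosa26 background, and the undifferentiated 129SV groups are used below as the state before differentiation. No transgene is named for the 129SV groups. The submitters' short names carry RI for the ES samples and 129SV for the adult ones, and the meaning of RI is not given in the sources used here. The sources used here give no protocol, length or inducer of the differentiation, no feeder layer, and no count of lines, clones or cultures behind the replicates. Every p-value thus rests on the spread between samples called biological replicates, and that spread may be partly technical. The groups are called adult-derived and ES-derived cells here, and both are differentiated unless stated otherwise.

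ES cells come from the inner cell mass of the blastocyst, and adult germline stem cells of this kind are cultures derived from the testis that had taken on multipotency. When such cells differentiate without further instruction, mixtures of primitive endoderm, mesoderm, ectoderm and epithelium form while genes of the pluripotent state decline. Imprinted genes are read from only the maternal or only the paternal chromosome, and the germline is where these marks are erased and laid down again, so a germline origin and an embryonic origin are often compared at these genes.

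Each value below is a log2 signal made by the authors with RMA, so a difference of 1 is 2-fold. A change is the mean of the adult-derived cells minus the mean of the ES-derived cells, with its standard error (SE) and a Benjamini-Hochberg adjusted p from limma over 19938 genes. Genes whose adjusted p lay under 0.05 are spoken of as called. Of the genes tested, 3874 (19.4%) were higher and 2545 (12.8%) were lower in the adult-derived cells, and the median change was -0.03. At least 2-fold differences were rarer, with 135 genes (0.677%) higher and 118 genes (0.592%) lower. For 97.4% of all genes the 95% confidence interval of the change lay within 2-fold, and the smallest called change was 1.09-fold. Small differences therefore make up most of the called genes, and the count of called members is read below against 19.4% higher and 12.8% lower.

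ES replicate 3 lay apart from its group. Its correlation across genes was 0.9923 with ES replicate 1 and 0.9907 with ES replicate 2, which correlated with each other at 0.997. Pairs of adult-derived arrays correlated between 0.9954 and 0.9969, and pairs of 1 adult-derived and 1 ES-derived array between 0.9800 and 0.9873. Without ES replicate 3, 3823 genes (19.2%) were higher and 2305 (11.6%) lower. Values without this array are given where they change a call, and its own pattern is described after the gene groups.

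Several of the 12 lowest genes belong to covering epithelium. Uroplakins are membrane proteins of the urinary bladder lining and also mark the mesothelium, the flat epithelium that covers inner organs. Upk1a read 7.69, 7.84 and 8.03 in the adult-derived cells, against 11.28, 11.30 and 11.35 in the ES-derived cells, a change of -3.46 (SE 0.08, adjusted p = 5.83e-14). Upk3bl read 7.23, 7.09 and 7.14 in the adult-derived cells and 10.31, 10.12 and 10.03 in the ES-derived cells (-3.00, SE 0.07, adjusted p = 9.93e-14). All ES-derived arrays stood far above all adult-derived arrays for both genes. Upk1b changed by -1.85 and Upk3b by -1.35, whereas Upk2 and Upk3a, the remaining uroplakins, were at -0.13 and -0.19 and did not pass the test, Upk3a passing without ES replicate 2 (-0.32, adjusted p = 0.038). Msln, which encodes the mesothelial surface protein mesothelin, read 9.73, 9.81 and 9.79 in the adult-derived cells, against 11.97, 11.92 and 11.88 in the ES-derived cells (-2.15, SE 0.10, adjusted p = 2.9e-10). In mixed cultures measured in bulk, fewer cells of a type and less RNA per cell cannot be told apart.

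**Figure D1:**
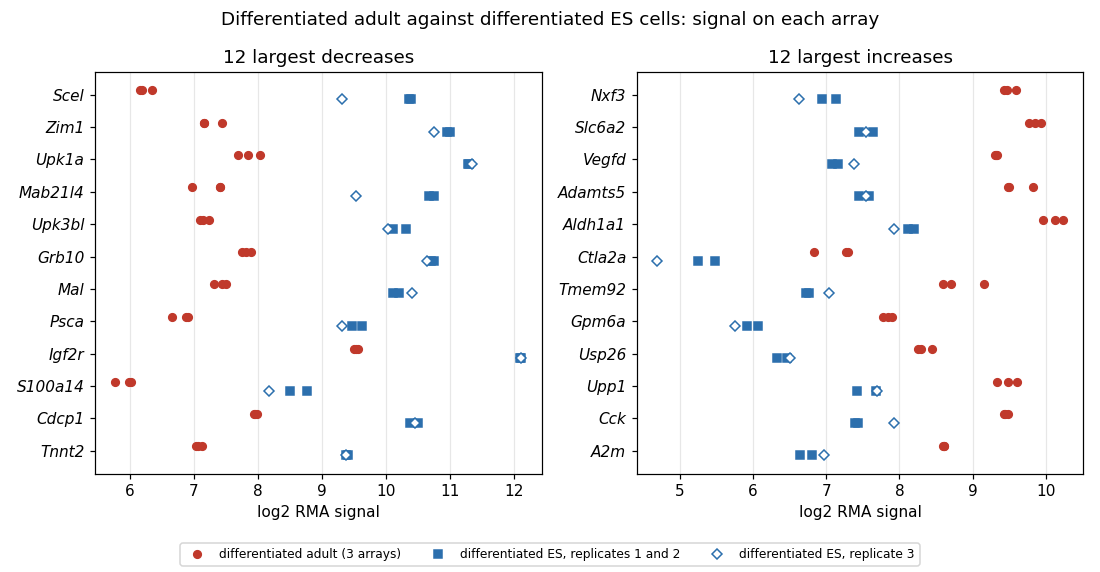
Log2 RMA signal on each of the 6 arrays for the 12 genes with the most negative changes (left) and the 12 with the most positive changes (right), with adult-derived arrays as red circles, ES replicates 1 and 2 as filled blue squares and ES replicate 3 as an open diamond. Genes entered this figure only if called, at least 2-fold and without overlap between the groups, so the absence of overlap is not a result. ES replicate 3 stands nearer to the adult-derived arrays than replicates 1 and 2 do for several genes, among them Scel, Mab21l4 and Cck.

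Of 30 measured genes of surface epithelium and uroplakins, 24 were lower, 14 of them at least 2-fold, 1 was higher and 5 did not pass, with a median change of -0.91. Without ES replicate 3 the list held 23 lower genes and 1 higher gene. Claudins seal tight junctions, and Cldn4 read 9.67, 9.85 and 9.72 in the adult-derived cells, against 11.59, 11.52 and 11.58 in the ES-derived cells (-1.82, SE 0.06, adjusted p = 3.3e-12). Cldn3 changed by -1.65. Cdh1, the adhesion molecule E-cadherin, read 10.37, 10.37 and 10.38 in the adult-derived cells and 11.50, 11.45 and 11.46 in the ES-derived cells (-1.10, SE 0.05, adjusted p = 1.21e-10). Epcam, another epithelial adhesion molecule, changed by -0.61, the epithelial transcription factor Elf3 by -0.61, and Trp63, a regulator of stratified epithelium, by -0.49. Wt1, a transcription factor of mesothelium, kidney and gonad, was the 1 higher member, with 9.35, 9.40 and 9.25 in the adult-derived cells and 8.65, 8.75 and 8.76 in the ES-derived cells (0.61, SE 0.09, adjusted p = 3.95e-05).

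Scel, which encodes sciellin of the cornified envelope, had the largest decrease of all genes named, with 6.18, 6.16 and 6.35 in the adult-derived cells, against 10.40, 10.36 and 9.32 in the ES-derived cells (-3.79, SE 0.19, adjusted p = 4.01e-10). Its value in ES replicate 3 was 1.06 below the mean of the other ES-derived arrays, and without that array the change was -4.15. Mab21l4 read 6.97, 7.40 and 7.41 in the adult-derived cells and 10.75, 10.67 and 9.54 in the ES-derived cells (-3.06, SE 0.22, adjusted p = 2.43e-08), or -3.45 without ES replicate 3. Its relatives Mab21l1, Mab21l2 and Mab21l3 were at -0.01, 0.05 and -0.24, and of these only Mab21l3 passed the test, though not without adult replicate 2 (-0.16) or ES replicate 1 (-0.21). Ppl and Evpl, which encode the desmosome-linked plakins periplakin and envoplakin, changed by -1.68 and -0.89.

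Mal, which sorts proteins to the apical membrane, read 7.43, 7.32 and 7.50 in the adult-derived cells, against 10.11, 10.21 and 10.41 in the ES-derived cells (-2.83, SE 0.10, adjusted p = 4.91e-12). Psca, a surface antigen anchored to the membrane by a lipid, changed by -2.66, S100a14 by -2.56 and Cdcp1, a receptor-like surface protein, by -2.49. Among other S100 genes, which encode small calcium-binding proteins, S100a16 changed by -0.99 and S100a11 by -0.27, while S100a1, S100a10 and S100a13 lay between -0.10 and 0.07 and did not pass. Tnnt2, known as cardiac troponin T, was also among the 12 lowest genes, with 7.06, 7.03 and 7.13 in the adult-derived cells and 9.41, 9.37 and 9.37 in the ES-derived cells (-2.31, SE 0.08, adjusted p = 9.72e-12). Tnnt1 and Tnnt3, the skeletal muscle troponins T, were at -0.19 and 0.09 and did not pass, Tnnt1 passing without adult replicate 3 (-0.25, adjusted p = 0.0266).

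Keratins form the intermediate filaments of epithelia. Of 17 measured keratin genes, 8 were lower, 1 was higher and 8 did not pass, with a median of -0.28. Krt7, of simple epithelium, read 9.15, 9.13 and 9.01 in the adult-derived cells, against 10.71, 10.73 and 10.75 in the ES-derived cells (-1.63, SE 0.07, adjusted p = 4.41e-11). Krt4 changed by -1.41 and Krt15 by -0.96, both of stratified epithelium. The pair Krt8 and Krt18, which is also the first keratin pair of the embryo, changed by -0.28 and -0.46, and Krt19 by -0.34, all smaller changes than that of Krt7. Krt23 was higher, by 0.43. In a fit to the 6 arrays alone none of the keratin genes was higher and 5 were lower, and neither Krt23 (adjusted p = 0.0577) nor Krt8 (adjusted p = 0.0572) passed. With dim genes left out 5 were lower. That fit tested 11406 genes, of which 3918 were higher and 2156 lower. Members that were dim in every group were not tested in it. Its counts, here and below, are therefore not to be set against the measured members or the shares over all genes. Without ES replicate 3, 7 keratin genes were lower and 2 higher, and 2 were also higher without adult replicate 2. Krt20, of intestinal epithelium and the urinary bladder lining, changed by -0.42, but its call ended without ES replicate 3 (-0.35), ES replicate 2 (-0.42), adult replicate 1 (-0.30) or adult replicate 2 (-0.45).

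Snai1, Snai2, Zeb1 and Zeb2 encode transcription factors known to repress E-cadherin in other settings, and they were no list counted here. Snai1 read 11.11, 11.32 and 11.21 in the adult-derived cells and 10.14, 9.95 and 10.30 in the ES-derived cells (1.08, SE 0.08, adjusted p = 1.95e-08). Zeb1 changed by 0.39 and Snai2 by 0.34, whereas Zeb2 was at 0.01 and did not pass. Cdh2, which encodes N-cadherin, was higher by 0.73.

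Promoters of epithelial genes are printed because these genes moved together and motifs are known for factors of this cell type. The 250 bases before the start of each gene were read from RefSeq (GRCm38.p6). An entry was found for 18 of 30 measured epithelial and 18 of 33 measured fibroblast list members, taken whether called or not. Searched on both strands, the E-box letters CAGGTG, a motif of the Snail and Zeb families, were present in 9 of 18 epithelial promoters and 0 of 18 fibroblast promoters, against 16.6% of 15614 promoters of the genes tested. The Grainyhead letters AACCNGTT were in 3 of 18 epithelial promoters (16.7%), 0 of 18 fibroblast promoters and 1.7% of all. AP-1 letters TGAGTCA were in 1 of 18 promoters of each list (5.6%) and in 3.9% of all, and TEAD letters GGAATG in 22.2% of epithelial, 16.7% of fibroblast and 11.4% of all promoters. The motifs were chosen with the direction of these genes known, base composition was not matched, and a match of letters is a description of the window. Capitals mark the matches in the 3 promoters shown, each 5′ to 3′ on the strand of its gene: Upk3bl at chr5:136057017-136057266 on the plus strand, whose table entry begins 8 bases from the annotated gene start, Cldn4 at chr5:134946935-134947184 on the minus strand, and Epcam at chr17:87635729-87635978 on the plus strand.
Upk3bl: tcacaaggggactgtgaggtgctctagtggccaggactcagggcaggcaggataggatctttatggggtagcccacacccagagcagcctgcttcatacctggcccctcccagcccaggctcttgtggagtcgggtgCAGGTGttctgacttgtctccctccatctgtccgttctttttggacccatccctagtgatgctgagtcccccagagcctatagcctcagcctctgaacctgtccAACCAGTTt
Cldn4: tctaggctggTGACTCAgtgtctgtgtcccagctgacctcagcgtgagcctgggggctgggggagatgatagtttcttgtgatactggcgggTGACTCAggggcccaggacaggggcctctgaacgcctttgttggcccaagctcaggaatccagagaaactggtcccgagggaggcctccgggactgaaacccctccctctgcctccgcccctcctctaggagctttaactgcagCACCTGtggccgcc
Epcam: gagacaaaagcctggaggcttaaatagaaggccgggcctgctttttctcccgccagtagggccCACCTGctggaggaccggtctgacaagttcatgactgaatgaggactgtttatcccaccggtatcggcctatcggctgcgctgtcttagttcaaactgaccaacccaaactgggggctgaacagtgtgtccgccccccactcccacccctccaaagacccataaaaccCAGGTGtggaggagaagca
In the Upk3bl promoter the E-box letters begin 113 bases and the Grainyhead letters 9 bases before the end of the window. The Cldn4 promoter holds AP-1 letters at 240 and 158 bases and E-box letters at 14 bases, and the Epcam promoter E-box letters at 187 and 19 bases. All promoters shown hold E-box letters, and they do not stand for the list. Of other epithelial genes looked up, Upk1a and Cldn3 had no E-box, Grainyhead or AP-1 match. Scel, which is not a member of the counted list, had AP-1 letters only. No entry was found for Cdh1, Upk1b or Msln.

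Genes of the miR-200 family, microRNAs enriched in epithelium that target Zeb1 and Zeb2, were lower in the same cells. Mir200b read 5.53, 5.11 and 5.57 in the adult-derived cells, against 6.69, 6.42 and 6.60 in the ES-derived cells (-1.17, SE 0.15, adjusted p = 1.61e-05). Mir200a changed by -0.58, Mir200c by -0.54 and Mir205, another epithelial microRNA, by -0.63, and Mir141 was at -0.27 without passing. Thus 4 of these 5 genes were lower, with or without ES replicate 3, while of all 296 microRNA genes measured 31 were higher and 45 lower, with a median of -0.08. The microRNA sets were put together after their values had been seen. A microRNA probe set on this array reads the region of the hairpin and need not report the mature strand. Mature sequences from RefSeq (GRCm38.p6) are shown 5′ to 3′ with the seed, bases 2 to 8, in capitals, to show which members share targets: miR-200b and miR-200c have 1 seed, and miR-200a and miR-141 another.
miR-200b-3p: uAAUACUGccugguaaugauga
miR-200c-3p: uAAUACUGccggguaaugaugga
miR-200a-3p: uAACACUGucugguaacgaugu
miR-141-3p: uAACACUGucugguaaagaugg
miR-205-5p: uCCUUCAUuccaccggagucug

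**Figure D2:**
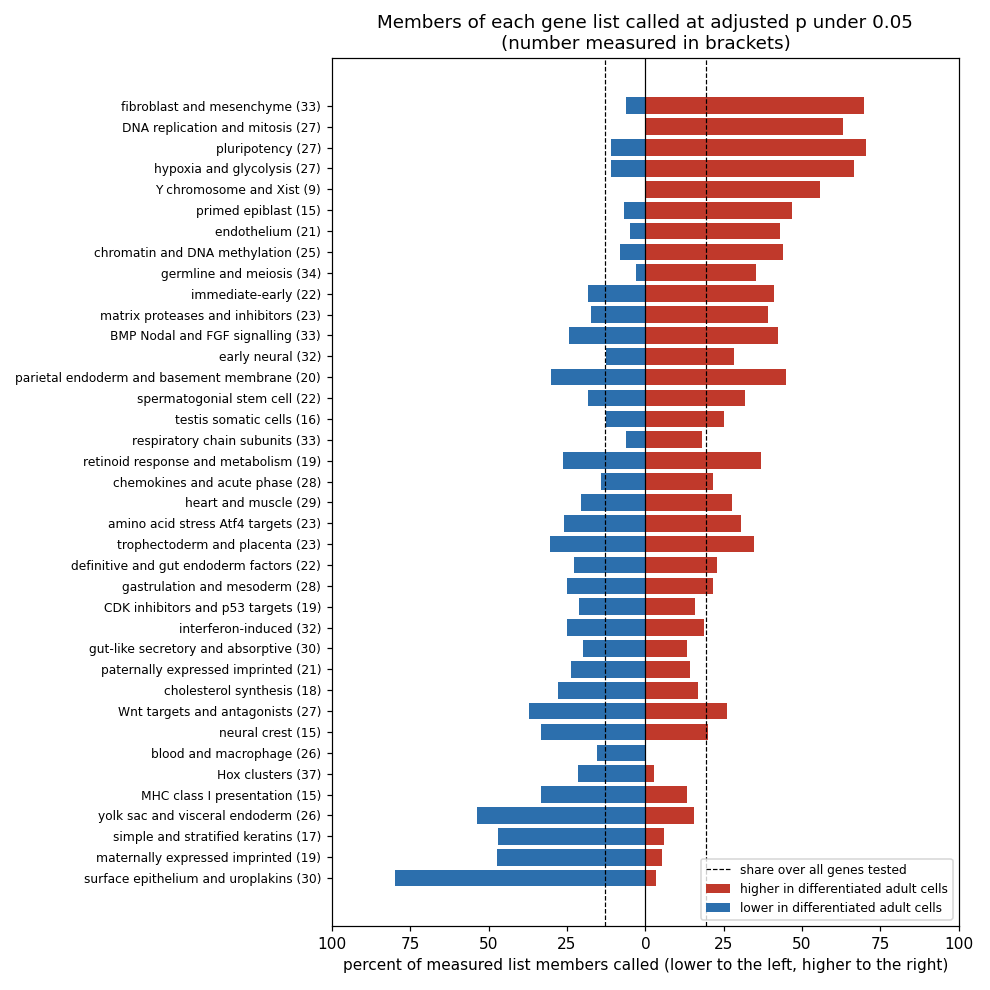
Percent of measured members called higher (red, to the right) and lower (blue, to the left) in the adult-derived cells for 38 gene lists, with the number measured in brackets and dashed lines at the shares over all genes tested, 19.4% and 12.8%. Surface epithelium lies furthest to the lower side, and the lists are ordered by the share higher minus the share lower, with fibroblast, DNA replication and pluripotency genes at the top. Hypoxia genes, 18 of 27 higher, follow close to them.

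Imprinted genes were also among the 12 largest decreases. Grb10, an adaptor that restrains insulin and IGF receptor signalling, read 7.89, 7.75 and 7.82 in the adult-derived cells, against 10.70, 10.75 and 10.64 in the ES-derived cells (-2.88, SE 0.05, adjusted p = 3.26e-15). Igf2r, the receptor that clears insulin-like growth factor 2, read 9.56, 9.54 and 9.51 in the adult-derived cells and 12.10, 12.12 and 12.12 in the ES-derived cells (-2.58, SE 0.05, adjusted p = 3.26e-15). The replicates of each group lay close together for both genes. Zim1, a zinc finger gene of the Peg3 region, read 7.15, 7.15 and 7.44 in the adult-derived cells and 11.01, 10.95 and 10.76 in the ES-derived cells (-3.66, SE 0.11, adjusted p = 6.38e-13). All 3 genes are known to be expressed from the maternal chromosome in mouse tissues, although Grb10 switches to the paternal copy in neurons. Igf2, the paternally expressed growth factor itself, read 10.32, 10.37 and 10.35 in the adult-derived cells, against 12.43, 12.41 and 12.37 in the ES-derived cells (-2.06, SE 0.05, adjusted p = 1.34e-13).

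Of 19 measured maternally expressed genes, 9 were lower and 1 was higher, with a median of -0.19, and 7 were lower without ES replicate 3. Cdkn1c, a brake on the cell cycle, changed by -1.04, the lipid transfer gene Osbpl5 by -0.90 and Ppp1r9a, which encodes the actin-binding protein neurabin, by -0.52. Among 21 paternally expressed genes, 5 were lower and 3 higher, with a median of 0.05, and 5 were higher without ES replicate 2. Besides Igf2, the lower members included Dlk1, a Notch-like surface protein, at -0.88 and the amino acid transporter Slc38a4 at -0.34. The higher members were Peg3 (0.33), Impact (0.35) and Ndn (0.38). Meg3, the maternal RNA read next to Dlk1, was at 0.02 and did not pass, so Dlk1 and Meg3 of the same domain gave different results.

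Part of the imprinted difference was already there before differentiation. Undifferentiated adult cells differed from undifferentiated ES cells by -1.54 at Grb10, -0.73 at Igf2r, -0.65 at Igf2, -0.93 at Cdkn1c and 0.10 at Zim1. The interaction, defined as the difference after minus the difference before differentiation, was -3.77 for Zim1, -1.85 for Igf2r, -1.40 for Igf2 and -1.34 for Grb10, each past the test. For Cdkn1c it was -0.11 and did not pass. The level of Grb10 averaged 7.82 in the adult-derived and 10.70 in the ES-derived cells, against 9.15 in undifferentiated adult and 10.69 in undifferentiated ES cells. Zim1 averaged 7.25 in the adult-derived and 10.91 in the ES-derived cells, against 6.53 and 6.42 in their undifferentiated counterparts.

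MicroRNA genes of the imprinted Dlk1-Dio3 region of chromosome 12 were higher as a group. Of 40 measured microRNA genes between the start of Dlk1 (position 109452485) and the start of Dio3 (110279230, GRCm38.p6), 23 were higher and none was lower, with a median of 0.38. These genes share a region and are known to be processed from long maternal transcripts, so they are not independent of each other. Mir380 read 7.84, 8.18 and 8.24 in the adult-derived cells, against 7.30, 7.12 and 6.83 in the ES-derived cells (1.00, SE 0.15, adjusted p = 5.32e-05). Mir377 changed by 0.74, Mir381 by 0.73, Mir300 by 0.65 and Mir127, which is antisense to Rtl1, by 0.42. ES replicate 3 was the lowest array for Mir380, Mir377, Mir381 and Mir300, and its deviation over the 40 genes had a median of -0.11. Without it 22 genes were higher and none lower, with Mir329 (0.23), Mir379 (0.39), Mir539 (0.27) and Mir543 (0.38) no longer passing and Mir370, Mir540 and Mir673 now passing. Mir329, Mir379 and Mir539 did not pass without adult replicate 1 or 2 either (changes of 0.32 to 0.61), Mir543 without adult replicate 2 (0.30) or ES replicate 2 (0.35), and Mir379 without ES replicate 1 (0.77), while Mir370 also passed without adult replicate 1 (0.24). Before differentiation the median difference of the 40 genes was 0.18. The mature strands of the leading members are shown to compare their seeds, in capitals. The seeds of miR-381-3p and miR-300-3p differ although the remaining bases are nearly alike, and the other seeds are unlike each other.
miR-380-3p: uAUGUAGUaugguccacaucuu
miR-377-3p: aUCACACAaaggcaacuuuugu
miR-381-3p: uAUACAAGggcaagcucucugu
miR-300-3p: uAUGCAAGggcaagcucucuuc
miR-127-3p: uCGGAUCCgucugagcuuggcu

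Mir99a, of a cluster on chromosome 16 with a let-7 gene, read 7.40, 7.14 and 6.96 in the adult-derived cells, against 5.93, 6.07 and 6.17 in the ES-derived cells (1.11, SE 0.16, adjusted p = 4.81e-05), the largest increase among the microRNA genes. Its neighbours on chromosome 16, Mirlet7c-1 and Mir125b-2, changed by 0.89 and 0.38. In the related cluster with Mir99b, Mirlet7e and Mir125a changed by -0.37 and -0.44, and Mir99b was at -0.23 without passing (passing without ES replicate 2 at -0.32), so relatives of the same seed went in opposite directions. Of 12 genes in the miR-15, miR-17 and miR-106b clusters, which are abundant in dividing cells, 7 were lower and none higher, with a median of -0.34 and a median of -0.39 before differentiation. Without ES replicate 3 the lower count was 8. The mature strands of the 2 leading members on chromosome 16 are as follows, with the let-7 seed in the second.
miR-99a-5p: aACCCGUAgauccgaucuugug
let-7c-5p: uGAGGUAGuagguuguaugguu

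**Figure D3:**
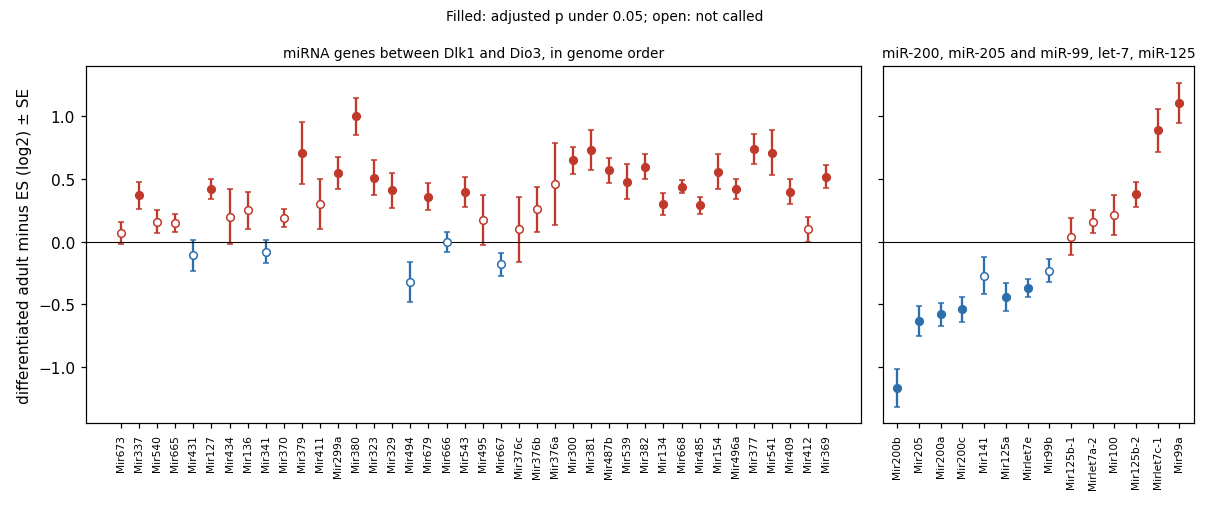
Change in log2 signal (adult-derived minus ES-derived, with bars of 1 SE) for the 40 microRNA genes between Dlk1 and Dio3 in genome order (left) and for 14 genes of the miR-200, miR-205, miR-99, let-7 and miR-125 groups (right), with filled points at adjusted p under 0.05. On the left 23 filled points lie above 0 and none below, and on the right Mir200b is lowest at -1.17 and Mir99a highest at 1.11.

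Genes of fibroblasts and mesenchyme, the loose matrix-forming cells, were higher. Of 33 measured members, 23 were higher, 10 of them at least 2-fold, and 2 were lower, with a median of 0.35, against 24 higher and 1 lower without ES replicate 3. One lower call also ended without adult replicate 1, adult replicate 2 or ES replicate 1. Col1a2, a chain of type I collagen, read 10.52, 10.56 and 10.58 in the adult-derived cells, against 8.71, 8.62 and 8.98 in the ES-derived cells (1.79, SE 0.07, adjusted p = 2.4e-11). Postn, the matrix protein periostin, read 9.12, 8.92 and 8.94 in the adult-derived cells and 7.35, 7.51 and 6.82 in the ES-derived cells (1.77, SE 0.12, adjusted p = 1.81e-08). Cdh11, a cadherin of mesenchyme, changed by 1.69, the collagen Col5a2 by 1.66, the elastic fibre gene Fbln5 by 1.51, Dcn, which encodes the proteoglycan decorin, by 1.05, and the mesenchymal factor Prrx1 by 0.72.

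These genes had the opposite order before differentiation. The median difference of the 33 genes between undifferentiated adult and ES cells was -0.73, and the interaction was positive for 29 and negative for 2 of them, against 24.2% and 21.5% of all genes tested. Dcn averaged 11.36 in the adult-derived and 10.32 in the ES-derived cells, whereas it averaged 10.15 in undifferentiated adult and 12.67 in undifferentiated ES cells. For Col1a2 the means were 10.56 in the adult-derived and 8.77 in the ES-derived cells, against 11.54 and 12.53 in the undifferentiated adult and ES cells. Fibroblast genes are also genes of feeder cells, whose part in these values was not tested.

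**Figure D4:**
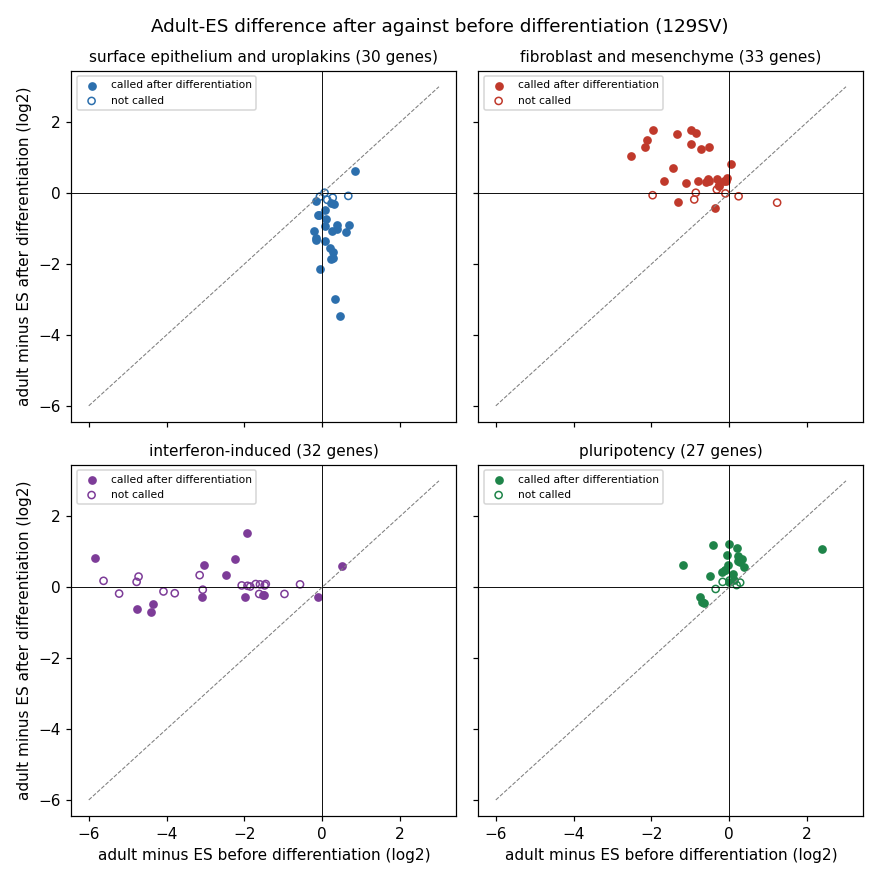
Difference of adult minus ES cells after differentiation (vertical axis, log2) against the same difference before it (horizontal axis, log2) for 4 gene lists, 1 point per gene, filled where called after differentiation, with a dashed line of equal differences. Of the 30 epithelial genes 24 are called below 0 after differentiation and 1, Wt1, above 0, with a median of 0.21 before it, fibroblast genes mostly above 0 after and below 0 before, and interferon-induced genes stretch to -5.85 before differentiation while lying between -0.71 and 1.54 after it.

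Of 23 measured matrix proteases and inhibitors 9 were higher, 4 lower and 10 not called, with a median of 0.11, and 7 were higher without ES replicate 3. The median of this list before differentiation was -0.56, and the interaction was positive for 15 and negative for 1 of its genes. Adamts5, a protease that cuts the cartilage proteoglycan aggrecan, read 9.83, 9.48 and 9.50 in the adult-derived cells, against 7.59, 7.45 and 7.55 in the ES-derived cells (2.07, SE 0.08, adjusted p = 4.17e-11). Mmp2, a gelatinase, changed by 1.39, and the plasminogen activators Plat and Plau by 1.11 and 0.87. Adamts9 changed by 1.09, and its 6 probe sets lay between 0.80 and 1.30, each past the test. The lower members included Mmp23 (-0.75) and Mmp3 (-0.43). A2m, which encodes the broad protease inhibitor alpha-2-macroglobulin, read 8.61, 8.60 and 8.61 in the adult-derived cells and 6.80, 6.64 and 6.97 in the ES-derived cells (1.80, SE 0.09, adjusted p = 2.57e-10).

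The largest increase was in Nxf3, a gene of the X chromosome related to the messenger RNA exporter Nxf1. It read 9.59, 9.47 and 9.43 in the adult-derived cells, against 7.13, 6.94 and 6.63 in the ES-derived cells (2.59, SE 0.11, adjusted p = 6.61e-11). Nxf2 and Nxf7 were at -0.26 and -0.02 and did not pass, Nxf2 passing without adult replicate 3 (-0.35) or ES replicate 2 (-0.34). Nxf1 was at 0.27, a call that ended without ES replicate 3 (0.17, adjusted p = 0.0588) or adult replicate 2 (0.25, adjusted p = 0.0503). Usp26, a ubiquitin protease gene of the X chromosome expressed in testis, read 8.45, 8.29 and 8.26 in the adult-derived cells, against 6.33, 6.47 and 6.50 in the ES-derived cells (1.90, SE 0.07, adjusted p = 9.72e-12). Both genes were already higher before differentiation, by 1.05 for Nxf3 and 1.24 for Usp26. So was Tmem92, at 1.97 after and 1.13 before.

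Several of the other top genes encode signals, transporters and enzymes. Slc6a2, the noradrenaline transporter, read 9.85, 9.93 and 9.77 in the adult-derived cells, against 7.64, 7.45 and 7.55 in the ES-derived cells (2.30, SE 0.12, adjusted p = 4.39e-10). Vegfd, a growth factor of lymphatic vessels, read 9.31, 9.32 and 9.33 in the adult-derived cells and 7.16, 7.08 and 7.38 in the ES-derived cells (2.12, SE 0.07, adjusted p = 3.3e-12). Vegfc, its closest relative, changed by 0.77, while Vegfa changed by -0.26 and Vegfb was at -0.14 without passing (passing without adult replicate 3 at -0.17). Cck, which encodes the peptide cholecystokinin, changed by 1.87, the pyrimidine salvage enzyme Upp1 by 1.88, the neuronal membrane glycoprotein Gpm6a by 1.93, and Ctla2a, a protease inhibitor related to a cathepsin propeptide, by 2.00. Their relatives Upp2, Gpm6b and Ctla2b were at 0.07, 0.24 and 0.39 and did not pass, Gpm6b passing without ES replicate 3 (0.32) or adult replicate 1 (0.34). None of Slc6a2, Vegfd, Cck, Upp1 and Gpm6a differed by more than 0.38 before differentiation, and Ctla2a was then at -1.60.

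Vitamin A genes held both directions. Aldh1a1, which makes retinoic acid from retinal, read 10.24, 10.13 and 9.97 in the adult-derived cells, against 8.20, 8.12 and 7.93 in the ES-derived cells (2.03, SE 0.12, adjusted p = 2.1e-09). Of its relatives Aldh1a2 changed by 0.35, and Aldh1a3 and Aldh1a7 were at -0.15 and 0.17 without passing, Aldh1a3 passing without ES replicate 2 (-0.26). The retinoic acid degrading enzymes Cyp26b1 and Cyp26a1 changed by 1.40 and 0.68, and the retinol uptake receptor Stra6 by 1.05. Crabp1, a retinoic acid binding protein, changed by -0.62 and the receptor Rxra by -0.53, while the receptor gene Rarb, itself induced by retinoic acid, was at 0.24 without passing (passing without ES replicate 1 at 0.30). In all 7 of 19 measured genes were higher and 5 lower, with a median of -0.02.

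Pluripotency genes were higher in the adult-derived cells. Of 27 measured members 19 were higher and 3 lower, with a median of 0.48, and 21 were higher and 3 lower without ES replicate 3. Nanog read 11.42, 11.44 and 11.34 in the adult-derived cells, against 10.91, 10.97 and 10.88 in the ES-derived cells (0.48, SE 0.05, adjusted p = 1.54e-06). Pou5f1, the gene of Oct4, read 9.97, 10.10 and 10.21 in the adult-derived cells and 9.51, 9.68 and 9.19 in the ES-derived cells (0.63, SE 0.10, adjusted p = 7.83e-05). Sox2 averaged 9.91 ± 0.09 in the adult-derived cells and 9.47 ± 0.33 in the ES-derived cells (SD, n = 3 each), without overlap of the arrays (0.43, SE 0.11, adjusted p = 0.00558). In a fit to the 6 compared arrays alone the Sox2 call ended (adjusted p = 0.106). ES replicate 3 was the lowest array for all 3 genes, and without it their changes were 0.46, 0.50 and 0.25.

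Larger changes among these genes were 1.22 for Utf1, a chromatin factor of ES cells, 1.10 for Fbxo15, 1.09 for Dppa3, 0.90 for Klf2, 0.87 for the growth factor Gdf3 and 0.79 for Zfp42, known as Rex1. Dppa3 was already higher in adult cells before differentiation, by 2.39, and its interaction was -1.30. Klf4 was at 0.15 and did not pass, but passed without ES replicate 3 (0.21, adjusted p = 0.0133), and Klf5 was lower by 0.41 on the log2 scale. The labels call both groups differentiated, and these genes bear on that. Pou5f1 averaged 10.09 in the adult-derived and 9.46 in the ES-derived cells, against 12.56 and 12.60 in undifferentiated adult and ES cells. Nanog averaged 11.40 in the adult-derived and 10.92 in the ES-derived cells, against 11.89 and 11.99 before. Sox2 averaged 9.91 in the adult-derived and 9.47 in the ES-derived cells, against 11.43 and 11.62 before. Transcripts of the pluripotent state were thus still read in both differentiated groups, and the share of cells that carried them cannot be given from bulk arrays.

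Genes of the primed epiblast, the state after implantation, gave 7 higher and 1 lower of 15 (9 and 1 without ES replicate 3), with a median of 0.16. The lower count was 2 without adult replicate 2 or ES replicate 2. Otx2, a factor of anterior epiblast, changed by 0.86, the Nodal antagonists Lefty2 and Lefty1 by 1.02 and 0.84, and the de novo methyltransferase Dnmt3b by 0.46. Fgf5, the usual marker of that state, was at -0.01 and did not pass.

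Germline genes were checked because the adult cells came from testis. Of 34 measured genes of germline and meiosis, 12 were higher and 1 was lower, with a median of 0.05, and the lower count was 2 without adult replicate 1, ES replicate 1 or ES replicate 2. Scml2, a Polycomb-related protein of the germline, changed by 1.37, and Asz1 and Tex14, needed for spermatogenesis, by 1.08 and 0.95. Tex19.1 and Tex15 changed by 0.90 and 0.89, the meiotic cohesin Smc1b by 0.77 and the RNA-binding protein Dazl by 0.69. Before differentiation the median of the 34 genes was 0.10, while Dazl was at -1.53 and Asz1 at -0.57. The interaction was positive for 15 and negative for 6 of the 34, against 24.2% and 21.5% of all genes tested. Stra8, which retinoic acid induces before meiosis, read 7.52, 7.55 and 7.57 in the adult-derived cells, against 7.17, 6.83 and 7.09 in the ES-derived cells (0.52, SE 0.12, adjusted p = 0.0038). Ddx4, the RNA helicase Vasa that defines germ cells, read 6.95, 6.68 and 6.66 in the adult-derived cells and 6.97, 6.90 and 6.81 in the ES-derived cells (-0.13, adjusted p = 0.253), and the groups overlapped. Without adult replicate 1 it passed as lower (-0.22, adjusted p = 0.0474). Among 22 genes of spermatogonial stem cells 7 were higher and 4 lower, with a median of -0.06. Gfra1, the receptor for the stem cell factor GDNF, was lower (-0.36), Zbtb16, known as PLZF, was at -0.16 without passing, and Sohlh2 and Id4 were higher by 0.76 and 0.61.

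Genes of testis somatic cells gave 4 higher and 2 lower of 16, with a median of -0.06, and 1 lower without ES replicate 3 or without adult replicate 2. Star, which moves cholesterol into mitochondria for steroid synthesis, changed by 0.55. Amh of Sertoli cells and Cyp17a1 of Leydig cells were at -0.06 and 0.04 and did not pass. On the Y chromosome Zfy1 changed by 1.08, Uba1y by 0.87, Kdm5d by 0.68, Uty by 0.61 and Usp9y by 0.40, while Xist of the X chromosome was at 0.05 without passing. Thus 5 of 9 measured genes of this list were higher and none lower, with a median of 0.40, and 1 was lower without ES replicate 1. With dim genes left out 3 were higher and 1 lower. Eif2s3y, at 0.29, did not pass (adjusted p = 0.0522) but passed in the fit blocked on replicate (0.29, adjusted p = 0.0364), without adult replicate 3 (0.36) and without ES replicate 2 (0.42).

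Gata4, a factor of primitive endoderm and heart, read 12.58, 12.47 and 12.53 in the adult-derived cells and 12.09, 12.03 and 11.88 in the ES-derived cells, against means of 8.13 and 8.68 in undifferentiated adult and ES cells. Sox7, an early factor of primitive endoderm, read 10.74, 10.67 and 10.54 in the adult-derived cells, against 9.25, 9.01 and 9.10 in the ES-derived cells (1.53, SE 0.08, adjusted p = 1.37e-09). Sox17 changed by 0.59, Gata4 by 0.53 and Gata6 by 0.47, whereas Foxa1 and Gata5 changed by -0.53 and -0.45 and Foxa2 was at -0.02 without passing. The list of definitive and gut endoderm factors also held Sox7, its highest member. Of its 22 measured genes 5 were higher and 5 lower, with a median of -0.13, and with dim genes left out 5 were higher and 1 lower.

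Genes of the yolk sac and visceral endoderm, which absorbs and secretes nutrients for the embryo, were more often lower. Of 26 measured members 14 were lower, 5 of them at least 2-fold, and 4 higher, with a median of -0.31. The counts were equal without ES replicate 3. With dim genes left out, where dim members were not tested, 9 were lower. Fgb and Fgg, chains of fibrinogen, changed by -1.69 and -1.39, and the apolipoproteins Apoe and Apoa1 by -1.42 and -0.83. Afp, alpha-fetoprotein, read 5.85, 6.17 and 6.13 in the adult-derived cells, against 7.10, 7.18 and 7.16 in the ES-derived cells (-1.09, SE 0.12, adjusted p = 2.19e-06), and Ttr, transthyretin, changed by -1.05. The endocytic receptor gene Cubn was higher, by 0.39, and Dab2, its adaptor, was at 0.06 without passing. The secreted products named here thus passed as lower, and the receptor and its adaptor did not.

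Parietal endoderm, the cell layer that lays down a thick basement membrane, had 9 of 20 measured genes higher and 6 lower, with a median of 0.09, and 3 lower in a fit to the 6 arrays alone. Fst, the activin-binding protein follistatin, changed by 1.75, Plat by 1.11, the parathyroid hormone receptor Pth1r by 0.67, Thbd, or thrombomodulin, by 0.59 and the laminin chain Lama1 by 0.38. Lama5, a laminin chain of later epithelia, changed by -1.36, and Sparc was at 0.01 without passing. Gut-like secretory and absorptive genes gave 4 higher and 6 lower of 30 (2 lower with dim genes left out), with a median of -0.08, among them the mucin Muc13 at -0.72, the protease Anpep at -0.50, Ugt2b34 at 0.89, Spink1 at 0.76 and Tspan8 at 0.74. Trophectoderm genes gave 8 higher and 7 lower of 23, with a median of 0.06. Elf5, a defining factor of trophoblast, read 6.25, 6.00 and 6.40 in the adult-derived cells, against 7.81, 7.80 and 7.57 in the ES-derived cells (-1.51, SE 0.11, adjusted p = 4.74e-08). Gata3 changed by -0.98, Tfap2a by -0.86, Ets2 by -0.74 and Cdx2 by -0.43, while Hand1 was higher by 0.55.

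Endothelial genes were higher or not called, with 1 exception. Of 21 measured members 9 were higher and 1 was lower, with a median of 0.15, and 2 were lower without adult replicate 3, ES replicate 1 or ES replicate 2. Kdr, the main VEGF receptor, read 8.57, 8.56 and 8.59 in the adult-derived cells, against 7.26, 7.33 and 7.31 in the ES-derived cells (1.27, SE 0.08, adjusted p = 6.53e-09). Cdh5, the cadherin of endothelial junctions, changed by 1.19, Pecam1, also present on ES cells, by 1.13, the VEGF-C and VEGF-D receptor Flt4 by 0.84, Eng by 0.56 and Vwf by 0.49. Blood and macrophage genes gave no higher and 4 lower members of 26 (3 without ES replicate 3), with a median of -0.15. Csf1r, the macrophage growth factor receptor, changed by -1.02, Laptm5 by -0.92 and Cd68 by -0.51, and the pan-leukocyte gene Ptprc was at -0.22 without passing (passing without adult replicate 3 at -0.28 or ES replicate 2 at -0.25).

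Muscle genes were split. Of 29 measured heart and muscle genes 8 were higher and 6 lower, with a median of 0.03. The higher members included Cnn1 at 1.21, Myh11 at 1.19 and Acta2 at 0.82, known from smooth muscle, the intermediate filament gene Des (0.73) and the early cardiac actin Actc1 (0.41). Tnnt2, described above, was the lowest member, the striated muscle gene Smpx was lower (-0.62), and the atrial light chain Myl7 was at -0.27 without passing, but passed without ES replicate 3 (-0.40, adjusted p = 0.0071). Thus the cardiac genes Actc1, Tnnt2 and Myl7 did not move together. Genes of gastrulation and mesoderm gave 6 higher and 7 lower of 28, with a median of -0.10, but without ES replicate 3 they gave 9 higher and 3 lower. The lower count was also 3 without adult replicate 1 and 4 without adult replicate 2 or ES replicate 1, and the higher count was 3 without ES replicate 2. A fit to the 6 arrays alone gave 3 higher and 2 lower, and 3 were lower with dim genes left out.

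Early neural genes gave 9 higher and 4 lower of 32, with a median of 0.09, and 12 higher and 1 lower without ES replicate 3. The lower count was 2 without adult replicate 2 and 1 in a fit to the 6 arrays alone. The neurofilament gene Ina changed by 0.73 (a further probe set read 0.30 without passing), neural tubulin Tubb3 by 0.79, the adhesion molecule Ncam1 by 0.78 and Nes, which encodes nestin, by 0.45. Pax6, a factor of neural progenitors and the eye, changed by -0.36. Neural crest genes gave 3 higher and 5 lower of 15, with a median of -0.05, and the lower count was 2 without ES replicate 3 or adult replicate 1 and 3 without adult replicate 2 or 3, and 1 in a fit to the 6 arrays alone. Ednrb, the endothelin receptor of crest and melanoblasts, was higher by 0.57, Erbb3 was lower (-0.45), and Sox10 and Foxd3 were at 0.08 and -0.05 without passing. Hox genes, which pattern the body axis, gave 1 higher and 8 lower of 37, with a median of -0.08, and 5 lower without adult replicate 2. Hoxa5 was the higher one (0.41), with 2 higher without adult replicate 1 or ES replicate 1, and Hoxd8, Hoxc13 and Hoxd1 were lower by 0.54, 0.47 and 0.45 on the log2 scale. In a fit to the 6 arrays alone Hoxa5 did not pass (adjusted p = 0.0544), leaving no higher and 4 lower Hox genes, and with dim genes left out 2 were higher and 3 lower.

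Signalling genes differed by ligand. Of 27 Wnt targets, ligands and antagonists 7 were higher and 10 lower, with a median of -0.10 (0.05 without ES replicate 3), and 4 were higher in a fit to the 6 arrays alone. Wnt7b read 7.82, 7.92 and 7.79 in the adult-derived cells, against 9.45, 9.28 and 9.20 in the ES-derived cells (-1.46, SE 0.06, adjusted p = 6.97e-11). Wnt7a changed by -1.36 and Wnt6 by -1.22, ligands that many epithelia produce, and the receptor-degrading ligase Rnf43 by -0.83. Wnt5a, a ligand typical of mesenchyme, was higher by 0.56 and the nuclear effector Lef1 by 0.27, while the general target gene Axin2 was at 0.14 without passing (passing without adult replicate 3 at 0.20).

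Among 33 genes of BMP, Nodal and FGF signalling 14 were higher and 8 lower, with a median of 0.11. Id1, a direct target of BMP signals, read 8.47, 8.63 and 8.59 in the adult-derived cells, against 9.78, 9.65 and 9.81 in the ES-derived cells (-1.18, SE 0.08, adjusted p = 6.39e-09), and Id2 changed by -0.92. The ligands Bmp2 and Bmp4 were higher by 1.04 and 0.73, Bmp7 was lower (-1.07), and Inhba, a subunit of activin, was higher by 1.00. Ligands and target genes of the BMP pathway therefore did not change in 1 direction.

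Genes induced by interferon differed strongly before differentiation and little after it. Of 32 measured members 6 were higher and 8 lower in the adult-derived cells, with a median of 0.04, and 5 were lower without adult replicate 3. In a fit to the 6 arrays alone 6 were higher and 3 lower. The median before differentiation was -2.16, and the interaction was positive for 30 of 32 and negative for none. Irgm1, a GTPase of cell-autonomous defence, changed by 1.54, Cxcl10 by 0.82, Parp14 by 0.80 and Gbp3 by 0.63, whereas Rsad2 and Usp18 changed by -0.71 and -0.61. Irf7, a master regulator of the response, read 7.52, 7.71 and 7.78 in the adult-derived cells, against 7.97, 7.69 and 7.89 in the ES-derived cells (-0.18, adjusted p = 0.156, or -0.26 and 0.0481 without ES replicate 2). Before differentiation its mean was 7.30 in adult and 12.53 in ES cells.

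Genes of antigen presentation and inflammation also differed more before differentiation than after it, by their medians. Of 15 genes of MHC class I presentation 2 were higher and 5 lower, with a median of -0.12 (7 lower and -0.20 without ES replicate 3). The median of this list before differentiation was -0.66, and the interaction was positive for 9 and negative for 2 of its genes. H2-Q4 changed by -0.45, after -4.18 before differentiation, and B2m, the shared light chain, was at -0.07 without passing, but passed without ES replicate 3 (-0.20, adjusted p = 0.0282). Of 28 chemokine and acute phase genes 6 were higher and 4 lower, with a median of 0.01 and of -1.09 before differentiation, and the interaction was positive for 19 and negative for none. Saa3 changed by 0.97, the chemokines Ccl2, Ccl7 and Cxcl1 by 0.85, 0.83 and 0.76, the iron-binding protein gene Lcn2 by -0.99 and the adhesion receptor Icam1 by -0.89.

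Genes of DNA replication and mitosis were higher in the adult-derived cells. Of 27 measured members 17 were higher and none lower, with a median of 0.32, and without ES replicate 3 there were 16 higher and 1 lower. Mcm5, a subunit of the replicative helicase, read 10.52, 10.60 and 10.61 in the adult-derived cells, against 9.57, 9.46 and 9.47 in the ES-derived cells (1.07, SE 0.05, adjusted p = 2.86e-10). Rrm2, which makes deoxynucleotides, changed by 0.91, Mcm3 by 0.68, Mcm2 by 0.66, Birc5 by 0.65 and Top2a by 0.64, and the proliferation marker Mki67 by 0.28. CDK inhibitors, cyclins and p53 targets gave 3 higher and 4 lower of 19, with a median of 0.08, and 1 higher and 2 lower in a fit to the 6 arrays alone. Ccne1, the cyclin of entry into S phase, changed by 0.85, Cdkn1c by -1.04 as given above, and Perp, which is both a p53 target and a desmosome protein, by -0.90.

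Chromatin and DNA methylation genes gave 11 higher and 2 lower of 25, with a median of 0.15, and the lower count was 4 without ES replicate 3 or adult replicate 1. In a fit to the 6 arrays alone 7 were higher and 1 lower, and Suz12 (adjusted p = 0.0919) and Hells did not pass. Dnmt3l, the cofactor that guides DNA methylation in germ cells, changed by 0.65, the Polycomb subunits Ezh2 and Suz12 by 0.59 and 0.48, the helicase Hells by 0.59 and the 5-methylcytosine oxidase Tet1 by 0.41. Hypoxia and glycolysis genes gave 18 higher and 3 lower of 27, with a median of 0.25, and 10 higher in a fit to the 6 arrays alone. Adm, the vasodilator peptide adrenomedullin, changed by 1.07, the lactate exporter Slc16a3 by 0.90, Pfkp by 0.88 and Tpi1 by 0.65, both glycolytic enzymes, P4ha2 of collagen hydroxylation by 0.78 and the oxygen sensor Egln1 by 0.76. The glucose transporter Slc2a1 and Vegfa, both textbook targets of hypoxia, were lower by 0.39 and 0.26 on the log2 scale. Before differentiation the median of this list was -0.82, and the interaction was positive for 25 and negative for none.

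Remaining metabolic and stress lists had medians between 0.00 and 0.10, with members called in both directions. Amino acid stress genes gave 7 higher and 6 lower of 23 (4 and 1 in a fit to the 6 arrays alone), with a median of 0.06, led by the cystine transporter Slc7a11 at 0.96. Immediate-early genes gave 9 higher and 4 lower of 22 (5 and 2 in the same fit), with a median of 0.04, with Nr4a3 at 1.22, Ier2 at 0.60, Klf10 at -0.83 and Zfp36 at -0.67. Cholesterol synthesis gave 3 higher and 5 lower of 18, with a median of 0.00, with the feedback protein Insig1 at 0.58 and the sterol synthesis enzyme Sqle at -0.49. Respiratory chain subunits gave 6 higher and 2 lower of 33, with a median of 0.10 and none lower without ES replicate 3 or adult replicate 1, with Ndufa1 at 0.63 and Cox4i1 at 0.50. Before differentiation the medians were -0.69 for amino acid stress, -0.38 for immediate-early, 0.20 for cholesterol synthesis and 0.06 for respiratory chain genes. The interaction was positive for 19 and negative for 1 of the amino acid stress genes, and for 11 and 2 of the immediate-early genes. Cholesterol synthesis genes had 5 positive and 9 negative interactions, and respiratory chain genes 8 and 5.

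The difference between adult and ES cells itself differed after and before differentiation for 9110 genes, 4829 with a positive and 4281 with a negative interaction. The majority turned with arrays centred on their medians (4497 positive, 5084 negative) or quantile normalised (4113 positive, 5157 negative). Of these, 1083 positive and 265 negative interactions were at least 2-fold. The 4 groups in this test share no array. The most positive interactions lay in interferon-induced genes, with Cxcl10 at 6.66 and Ifit3 at 5.80, and in Adm at 4.67. The most negative lay in genes described above, with Scel at -4.08, Upk1a at -3.92 and Zim1 at -3.77. Upk1a, at -3.46 after differentiation, differed by 0.46 before it. Of 30 epithelial genes 24 had a negative and none a positive interaction, after a median difference of 0.21 before differentiation. Of 27 pluripotency genes 18 had a positive and 1 a negative interaction, after a median difference of 0.00.

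ES replicate 3 departed from its replicates along the range of signal. Its values had a standard deviation of 1.938 over genes, against 2.024 to 2.103 on the other 5 arrays, and an interquartile range of 2.797, against 3.042 to 3.211. In the dimmest of 4 equal bins of genes, by the mean of ES replicates 1 and 2, its deviation from that mean had a median of 0.28. The following bins had medians of 0.20, 0.00 and -0.07. Olfactory receptor genes, which are little expressed outside the nose, stood above both other replicates in 841 of 1027 cases and below both in 49, with a median deviation of 0.32. Keratin-associated protein genes had a median deviation of 0.29 over 44 genes and vomeronasal receptor genes of 0.26 over 167 genes. Ribosomal protein genes were below both other replicates in 47 of 67 cases, with a median of -0.12, and small nucleolar RNA genes had a median of -0.31 over 31 genes.

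**Figure D5:**
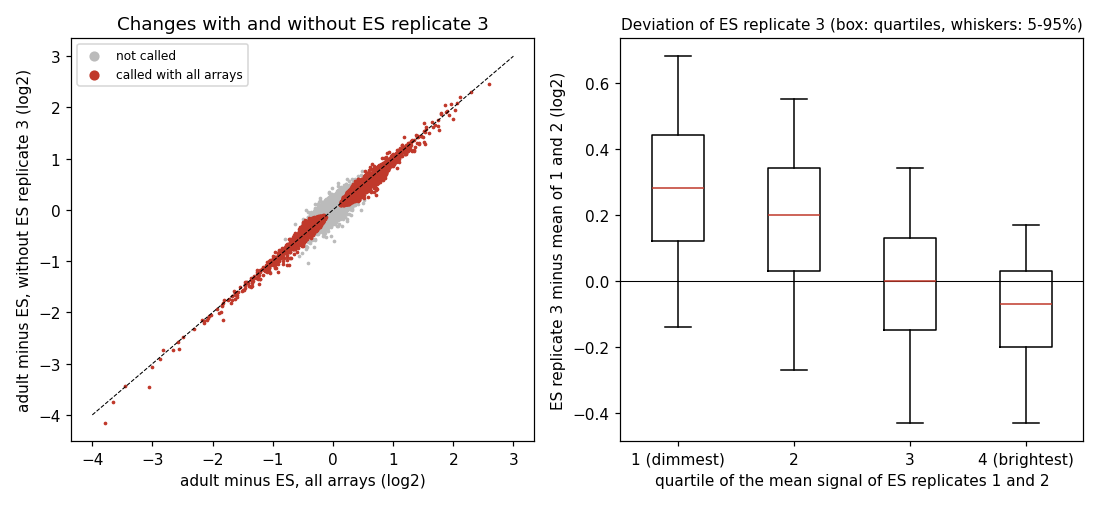
Left, change in log2 signal (adult-derived minus ES-derived) without ES replicate 3 against the change with all arrays, 1 point per gene, red where called with all arrays. Right, deviation of ES replicate 3 from the mean of ES replicates 1 and 2 by bin of signal (4 equal bins of genes), with boxes at the quartiles and whiskers at 5% and 95% of genes, and the median falls to -0.07 in the brightest bin, against 0.28 in the dimmest.

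Single genes deviated by more than these medians. Among genes whose ES replicates 1 and 2 lay within 0.5 of each other, Olfr1085 (1.29), Cyp2c39 (1.28), Olfr1051 (1.28) and Vmn2r19 (1.23), receptor genes and a cytochrome of liver, stood highest above them in ES replicate 3. Zfp931 (-1.86), Zfp617 (-1.37) and Zfp640 (-1.36), zinc finger genes, Pcgf1 (-1.36) of a Polycomb complex and Snord47 (-1.29) stood lowest below them. Of these 9 genes only Snord47 was called between the groups (0.72, adjusted p = 0.0275), and its call ended without ES replicate 3 (0.29), adult replicate 1 (0.63) or adult replicate 2 (0.72), while Zfp640 was called without ES replicate 3 (-0.50, adjusted p = 0.0221). Zinc finger genes as a family had a median deviation of -0.06 over 347 genes, so the low values concerned some of them.

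Leaving out ES replicate 3 kept 5342 of 6419 calls, lost 1077, of which 447 had been higher and 630 lower, and added 786. No gene was called in opposite directions with and without it. Of 253 genes called at least 2-fold, 234 kept that call. The changes with and without it correlated at 0.9564 across genes, against 0.9807 to 0.9869 when another of the 6 arrays was left out. Calls moved with signal. In the dimmest bin 281 genes were higher and 80 lower without it, against 189 and 193 with it, and in the brightest bin 1081 genes were lower without it, against 898 with it. Among olfactory receptor genes 18 were higher and 4 lower without it, against 4 and 20 with it, so the direction in this family rested on that array.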

How the data were processed

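Trizol-extracted, DNase-treated total RNA was labelled with biotin (300 ng per array), per the labels' protocols. Deposited signals are on a log2 scale and were computed by the authors with RMA. The software was Expression Console of Affymetrix, version not stated, per the submitters' processing notes. Joint normalisation of all arrays is not stated in the sources used here. The values ran from 1.27 to 14.6, and the medians over all probe sets lay between 7.345 and 7.349 on the ES-derived arrays and between 7.35 and 7.38 on the adult-derived arrays. Without scanner output, signal over background is not known, and the number of arrays limits the precision.

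Of 35556 probe sets, 21789 had 1 gene symbol in the platform annotation, 1621 had several and 12146 were not named, and 21698 matched a RefSeq gene ID (GRCm38.p6). For 999 genes with more than 1 probe set the brightest was used, which left 19938 genes. A model in limma 3.58.1 (lmFit, eBayes; R 4.3.3) took in all 18 arrays and gave each group its own mean, with 12 residual and 3.78 prior degrees of freedom, so each SE uses the spread shared over all 6 groups.

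Members, tests and 38 gene lists (940 genes, 870 measured) were chosen with earlier results of these data known, and Zim1 was moved to the maternally expressed list after its value was seen. Named genes came from the 12 highest and 12 lowest genes called at least 2-fold without overlap, and relatives of these. They also came from fixed key members and the most changed called members of each list. Others were the 8 most positive and negative interactions and the genes furthest off in ES replicate 3. Not every key member was described above. Among those left out, Aqp8 (0.09), Gkn2 (0.19), Fos (-0.06), Ccnd2 (0.08), Dkk1 (-0.20), Grem1 (-0.07), Cox6a2 (-0.26) and Cox7a1 (-0.20) did not pass. Egr1 (0.20), Asns (0.29) and Ddit3 (-0.23), also left out, passed. Predicted and clone models (4 of the 2-fold higher genes) were left out, and symbols that only begin like a clone name, such as A2m, were kept. Deviations from the group means correlated at 0.153, 0.144 and 0.442 between adult-derived and ES-derived arrays of the same replicate number and between -0.373 and 0.307 for unlike numbers, with adult 1 and ES 2 at 0.307 and adult 2 and ES 1 at 0.203, above the values of 2 same-number pairs. A paired fit, blocked on the number, was run. Other fits left out each array in turn, used the 6 arrays alone, centred or quantile normalised the arrays, weighted arrays, dropped dim genes, took every probe set or tested against a 1.2-fold change. On simulated data 12%, 70% and 100% of genes changed by 0.25, 0.5 and 1 were recovered, with 14 false among 155 calls. Only 50 genes were changed at each size and the noise was independent between arrays. These rates therefore need not hold for the real comparison.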

Additional observations from a re-analysis of the deposited data

Results flagged for a closer look

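The difference between adult and ES cells was not the same after and before differentiation for 9110 genes, by the interaction test in limma, and its largest members are listed here with values only. Interactions, after minus before differentiation, were 6.66 for Cxcl10, 5.80 for Ifit3, 5.04 for Irf7, 5.02 for Iigp1, 4.95 for Ifit3b, 4.92 for Trim30a and 4.36 for Cxcl11, all induced by interferon, and 4.67 for Adm. In the undifferentiated cells these genes had differences of -5.85 to -3.60 between adult and ES cells. After differentiation Ifit3, Irf7, Iigp1, Trim30a and Cxcl11 did not pass the test with all arrays, and without ES replicate 2 Irf7 (-0.26) and Iigp1 (0.43) passed. The most negative interactions were -4.08 for Scel, -3.92 for Upk1a, -3.77 for Zim1, -3.36 for Mab21l4, -3.33 for Upk3bl, -3.02 for Mal, -2.81 for S100a14 and -2.78 for Psca. These 8 genes differed by between 0.10 and 0.46 before differentiation. Groups of 3 arrays were too small for a test of single outlying arrays.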

How the results depend on the processing

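In a fit to the 6 compared arrays alone, 3537 genes were called, 2361 higher and 1176 lower, and against a 1.2-fold change limma treat called 1709, 1184 higher and 525 lower. That smaller fit called 21 epithelial and 11 yolk sac genes lower and 21 fibroblast, 16 pluripotency, 13 replication and 10 hypoxia genes higher. Among genes named here, Aldh1a2, Cdx2, Hells, Hoxa5, Krt8, Krt20, Krt23, Lef1, Mab21l3, Mir125a, Mir125b-2, Mir329, Mir379, Mir539, Mki67, Nxf1, Peg3, S100a11, Snord47, Sox2, Suz12 and Vegfa did not pass in it. With dim genes left out, 11406 genes were tested, of which 3918 were higher and 2156 lower. List members among the dim genes could not be called in that fit, and 9 yolk sac and 3 Hox genes were lower. Leaving out 1 array at a time gave 5329 to 6768 called genes, 3309 to 3823 of them higher and 2020 to 3003 lower, and 258 to 276 genes at least 2-fold. Without 1 of the 6 arrays, between 8250 and 9716 interactions were called. In the paired fit, with replicate as a block, 6436 genes, 253 of them at least 2-fold, and 9164 interactions were called. Apart from Eif2s3y the block changed no call of a gene named here. Positive interactions were the minority with arrays centred on their medians (4497 positive, 5084 negative) or quantile normalised (4113 and 5157). At an unadjusted p under 0.05, 8240 genes differed. The other alternatives kept the total within 1.5 times of 6419. Of 243 genes named and called, 187 stayed called in their direction in every alternative that kept them. With array weights Trim30a, at 0.15 without passing, was called at -0.28 (adjusted p = 0.0451), and the cause was not tested.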
